A study of Mus musculus with 11 samples.

Results

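The annexins are a family of calcium-dependent phospholipid-binding proteins, and the 9 described here are Anxa1 to Anxa8 and Anxa11, taken by gene symbol from the 32868 symbols of a table of RNA-seq libraries of mouse lung fibroblasts. The family was chosen on measured values: Anxa1 was 1 of the 2 genes called higher in fibroblasts lacking peptidylarginine deiminase 2 (PAD2KO) than in wild-type (WT) fibroblasts when both batches were fitted together, and the other members were taken with it to see whether Anxa1 moved alone. Differences between PAD2KO and WT are therefore given as descriptions, without a p-value. Differences between the batches within a genotype, and the test of whether the genotype difference differed between batches, were not the values used for that choice. Members and gene lists were still chosen with earlier results of these data known, which limits the p-values given for them.

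The fibroblasts were primary cells from the lungs of neonatal mice, sorted before RNA extraction. The enzyme missing in PAD2KO cells, encoded by Padi2, turns arginine residues of proteins into citrulline. Batch 2 held PAD2KO 6 and PAD2KO 7 with WT 5, WT 6 and WT 7, and batch 1 held PAD2KO 1, PAD2KO 2 and PAD2KO 3 with WT 1, WT 3 and WT 4, which makes 5 PAD2KO and 6 WT libraries. The labels do not say what made the batches separate, give no exact age, name no treatment although the series title speaks of TNF, and do not say whether the libraries of a group came from different animals, so a p-value reflects how far these libraries scatter, which may be technical.

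Annexins share a core that binds negatively charged phospholipids in membranes when calcium rises, and they differ in a short amino-terminal tail that binds partner proteins. Annexin A1 is known as a glucocorticoid-regulated protein that dampens inflammation through formyl peptide receptors and restrains cytosolic phospholipase A2. Annexin A2 pairs with the S100 protein encoded by S100a10 at the plasma membrane, where the pair binds plasminogen and its activator. Annexin A5 binds exposed phosphatidylserine, and several annexins gather at wounds in the plasma membrane during repair.

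Named genes took 962633 to 1421243 counts in a library, and levels are given as CPM, counts relative to the library's total scaled by TMM. A count of 0 leaves room for 2.11 to 3.12 CPM depending on the library, counting error only. Fibroblast markers such as Pdgfra (539 to 724 CPM) were strong, but Lum (1.58 to 14.1 CPM) and Tcf21 (0 to 18.5 CPM) were low. Over the 11 libraries the epithelial Epcam held 1 count, the endothelial Cdh5 5 counts and the leukocyte gene Ptprc 20 counts. Other genes of those lists held more, such as Krt18 with 314 counts, Egfl7 with 105 and Lyz2 with 536. Smooth muscle, mesothelial and some leukocyte genes were detected, and their sums stand beside the results. Padi2 held 9 counts in 5 PAD2KO libraries and 3 counts in 6 WT libraries, too few to check the genotype labels. A gene was called when edgeR's quasi-likelihood test gave it a Benjamini-Hochberg adjusted p under 0.05 over the 9932 genes that passed a filter on low counts. Of the 9 annexins, 8 passed that filter and Anxa8 did not. In bulk RNA, fewer cells of a type and less RNA per cell cannot be told apart.

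Per unit of transcript length, Anxa2 was the most abundant annexin, with 937 to 1608 TPM and a mean of 1109 ± 213 TPM (SD, n = 11 libraries). Anxa5 came next at 791 ± 173 TPM; the ranges of these genes overlapped, but Anxa2 was above Anxa5 in 11 of 11 libraries. Anxa1 averaged 402 ± 70.7 TPM and Anxa6, which binds late endosomes, 379 ± 36.2 TPM. Anxa1 was above Anxa6 in 7 of 11 libraries, so the order of this pair was not settled beyond their spread. A lower tier held Anxa3 at 132 ± 30.9 TPM, Anxa7 at 76.4 ± 12.3 TPM and Anxa4 at 53.3 ± 7.27 TPM. Anxa3 was above Anxa7, and Anxa7 above Anxa4, in 11 of 11 libraries. Anxa11, which tethers RNA granules to lysosomes, was scarce at 6.06 ± 2.64 TPM, on 8 to 18 counts a library. Anxa8 had 0 to 5 counts a library and 0 to 2.89 TPM, at the limit of what this depth shows. Outside the list, Anxa9 held 0 to 4 counts a library, and Anxa10 and Anxa13 held 0 counts in all 11.

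**Figure D1:**
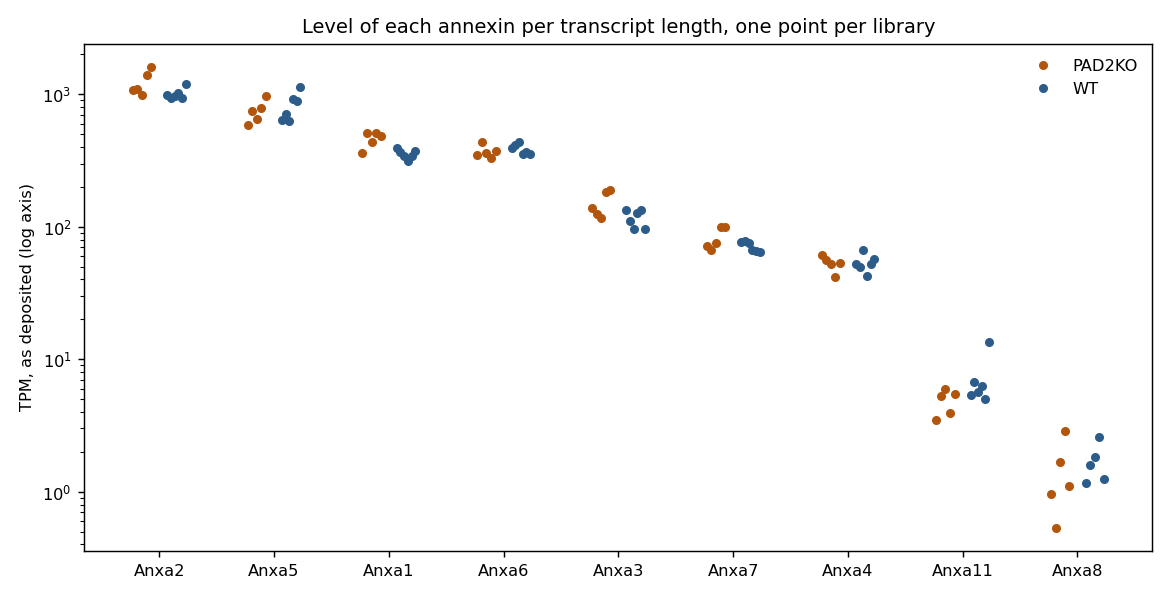
Deposited TPM (log axis) of the 9 annexins, ordered by mean, with each point a library, PAD2KO left of WT. Anxa2 leads at 937 to 1608 TPM and Anxa8 ends the order; the WT library in which Anxa8 was listed at 0 is not drawn.

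The 9 annexins together took 3356 and 3799 TPM in PAD2KO and 2797 to 3285 TPM in WT libraries of batch 2, and 2644 to 3040 TPM in PAD2KO and 2628 to 2682 TPM in WT libraries of batch 1. Anxa1 on its own was 14.7% and 17.8% of the TPM of the other 8 in PAD2KO libraries of batch 2, against 12.2% to 13.8% in the WT libraries. In batch 1 it was 15.8% to 20.1% in PAD2KO and 15.0% to 17.2% in WT libraries. The share of Anxa1 therefore lay apart between genotypes in batch 2, by a narrow gap (14.7% against 13.8%), and overlapped in batch 1. By CPM, PAD2KO lay wholly above WT for 15.5% of the genes tested in batch 2, and such gaps by TPM were not counted over all genes. Set against Anxa2 alone, Anxa1 showed no such gap: the ratio of their TPM was 0.30 and 0.36 in PAD2KO and 0.30 to 0.36 in WT libraries of batch 2.

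Promoters of 7 of the 9 members are held in the RefSeq table used here (build GRCm38.p6). The 3 shown belong to the annexins on which the results turn: Anxa1, chosen for its genotype difference, Anxa2, which moved with it in batch 2, and Anxa5, which moved with batch alone. Each runs 5′ to 3′ along the gene's strand from 250 bases before to 50 after the annotated start; Anxa1 at chr19:20390622-20390921 (minus strand), Anxa2 at chr9:69453433-69453732 (plus strand) and Anxa5 at chr3:36475838-36476137 (minus strand). Capitals mark matches, on either strand, to 5 motifs that were searched: the TATA box TATAAA, the CCAAT box, the GC box GGGCGG, the AP-1 site TGANTCA and the TEAD site CATTCC.
Anxa1: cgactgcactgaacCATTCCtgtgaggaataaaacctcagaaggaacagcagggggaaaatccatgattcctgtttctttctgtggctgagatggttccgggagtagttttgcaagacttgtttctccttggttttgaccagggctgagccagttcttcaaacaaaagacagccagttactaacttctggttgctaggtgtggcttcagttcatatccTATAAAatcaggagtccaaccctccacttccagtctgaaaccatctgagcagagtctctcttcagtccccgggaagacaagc
Anxa2: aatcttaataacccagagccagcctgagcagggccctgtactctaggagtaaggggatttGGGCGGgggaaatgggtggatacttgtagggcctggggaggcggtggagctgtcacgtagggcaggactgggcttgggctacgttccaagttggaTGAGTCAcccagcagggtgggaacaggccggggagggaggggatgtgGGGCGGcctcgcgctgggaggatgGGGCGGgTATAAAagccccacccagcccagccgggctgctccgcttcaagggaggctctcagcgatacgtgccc
Anxa5: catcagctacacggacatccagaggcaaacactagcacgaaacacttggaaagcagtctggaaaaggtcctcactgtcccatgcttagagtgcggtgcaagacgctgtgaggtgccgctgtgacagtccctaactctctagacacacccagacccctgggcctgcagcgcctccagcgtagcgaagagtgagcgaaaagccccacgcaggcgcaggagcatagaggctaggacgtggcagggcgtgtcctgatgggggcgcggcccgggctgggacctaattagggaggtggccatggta

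The Anxa1 window held TATAAA beginning 32 bases before the start and CATTCC beginning 236 bases before it. Anxa2 held TATAAA 17 bases before the start, GGGCGG at 190, 48 and 24 bases before it, and TGAGTCA at 95 bases before it, a match that reads as the AP-1 motif on both strands. None of the 5 motifs occurred in the Anxa5 window. Of the 32851 promoters in the table, 13.6% held TATAAA, 37.4% CCAAT, 35.7% GGGCGG, 7.81% TGANTCA and 14.7% CATTCC. These matches describe letters in these windows and say nothing of binding in these cells.

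Anxa1 was higher in PAD2KO than in WT fibroblasts of both batches. In batch 2 it had 516 and 567 CPM in PAD2KO libraries, against 379, 354 and 381 CPM in WT libraries. In batch 1 it had 423, 437 and 415 CPM in PAD2KO and 365, 358 and 319 CPM in WT libraries. No PAD2KO library fell into the WT range of its batch, and the gap was wider in batch 2. PAD2KO lay wholly above WT in CPM for 15.5% of the 9932 genes tested in batch 2 and for 5.41% in batch 1. On the log2 scale PAD2KO minus WT was 0.54 (SE 0.111) in batch 2, 0.29 (SE 0.100) in batch 1 and 0.40 (SE 0.0819) over both. The call over both batches was fragile: it was kept in 3 of the 11 fits that each left out a library and lost without PAD2KO 2, PAD2KO 3, PAD2KO 6, PAD2KO 7, WT 3, WT 4, WT 5 or WT 6, with log2 changes of 0.36 to 0.44 throughout.

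Anxa2, the partner of S100a10, stood apart between genotypes in batch 2, with PAD2KO above WT, as for 15.5% of the genes tested. It had 1453 and 1684 CPM in PAD2KO libraries, against 1062, 1001 and 1285 CPM in WT libraries of that batch. In batch 1 it had 1109, 1059 and 939 CPM in PAD2KO and 987, 932 and 941 CPM in WT libraries, so the genotypes overlapped there. PAD2KO minus WT was 0.49 (SE 0.117) on the log2 scale in batch 2 and 0.12 (SE 0.106) in batch 1.

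Anxa3, an annexin known from neutrophil granules and from endothelial tube formation, showed the same layout at a lower level. It had 197 and 187 CPM in PAD2KO libraries of batch 2, against 139, 138 and 106 CPM in the WT libraries. In batch 1 the values were 149, 122 and 106 CPM in PAD2KO and 132, 111 and 97.4 CPM in WT libraries. The genotypes were separate in batch 2, as for 15.5% of the genes tested in this direction, and interleaved in batch 1. Its log2 difference was 0.58 (SE 0.152) in batch 2 and 0.15 (SE 0.142) in batch 1.

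**Figure D2:**
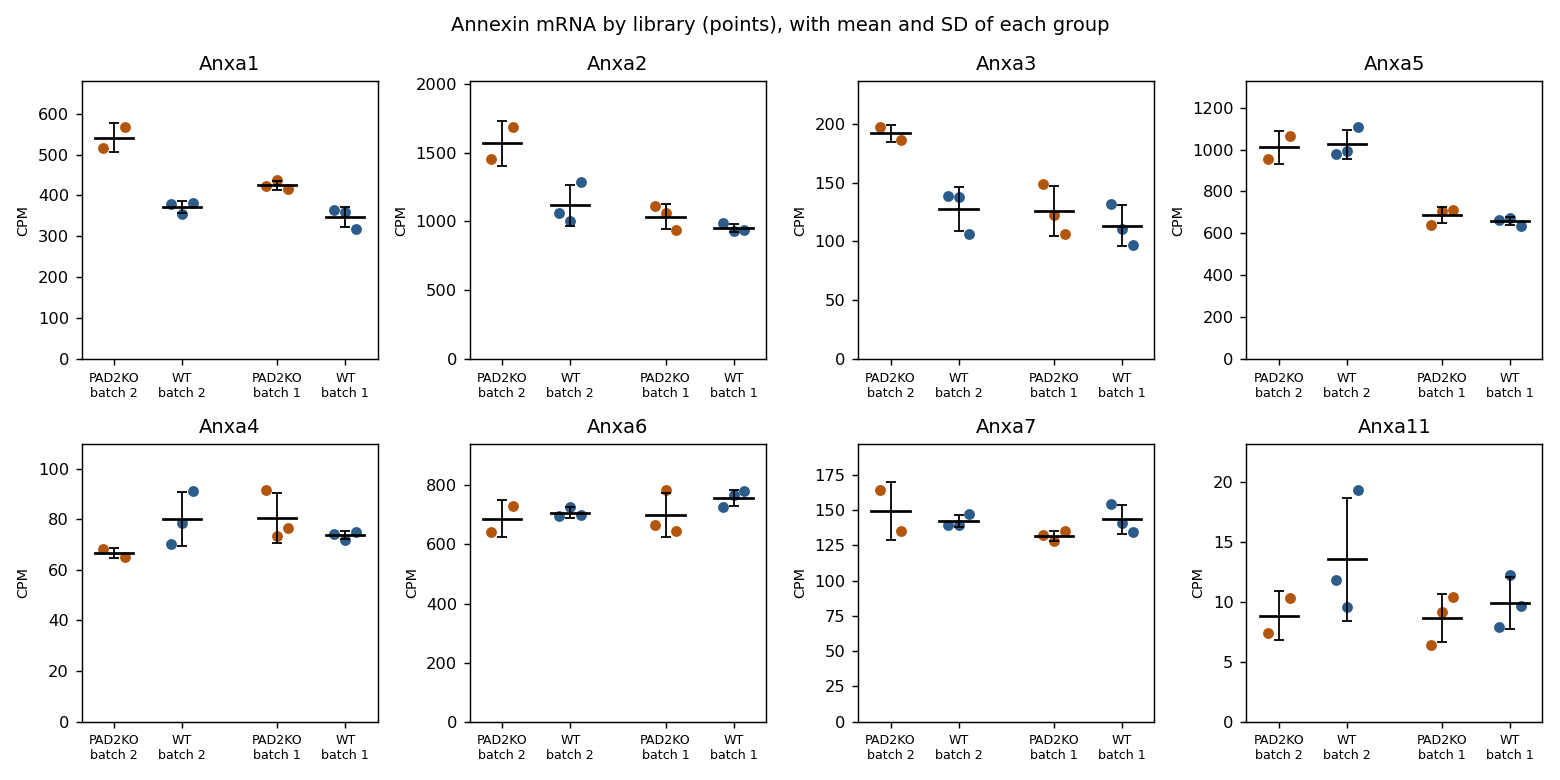
CPM of the 8 annexins that passed the filter, by genotype and batch; points are libraries, lines the mean and bars the SD. Anxa1, Anxa2 and Anxa3 are highest in the PAD2KO libraries of batch 2 (516 and 567 CPM for Anxa1), whereas Anxa5 is high in both genotypes of batch 2.

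Counted over the family, the fit of both batches called 1 of the 8 tested annexins, Anxa1, as higher in PAD2KO, beside 0.191% of all genes called in either direction and 0.0201% called higher. In batch 1 it called 0 of 8, beside 0.131% of all genes, and DESeq2 called 0 as well. In batch 2 it called 3 of 8, all higher (Anxa1, Anxa2 and Anxa3), beside 3.11% of all genes called in either direction and 1.4% called higher. DESeq2's test called 2 of the 8 there, and 247 genes in all in place of 309. Since the family was picked on this contrast, the counts describe the members and carry no weight as evidence. Anxa1 was thus accompanied in batch 2 by Anxa2 and Anxa3 and was the lone call in the joint fit, where Anxa2 stood at 0.29 (SE 0.0926) and Anxa3 at 0.35 (SE 0.115) on the log2 scale. The median log2 difference of the 8 was 0.03 in batch 2 and 0.09 in batch 1, beside -0.0068 and -0.0011 over all genes. Without PAD2KO 7, which leaves PAD2KO 6 alone and assumed to vary like the other groups, 0 of 8 were called in batch 2, while the log2 differences were 0.48 for Anxa1, 0.38 for Anxa2 and 0.61 for Anxa3. Without WT 6 the count was 1, with differences of 0.51, 0.42 and 0.63. With offsets from the deposited gene lengths, 0 of 8 were called in batch 2 and over both batches; the call over both was also lost with no batch term.

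None of the other 5 tested annexins was called between the genotypes. Anxa5 differed by -0.02 (SE 0.109) on the log2 scale in batch 2 and by 0.06 (SE 0.0983) in batch 1. Anxa6 had log2 differences of -0.04 (SE 0.113) in batch 2 and -0.12 (SE 0.101) in batch 1. Anxa4, which is best known from epithelia, had 68.1 and 65.2 CPM in PAD2KO libraries of batch 2, against 70.1, 78.6 and 91.3 CPM in WT libraries. This was the reverse layout of Anxa1, with a log2 difference of -0.25 (SE 0.167) that was not called. PAD2KO lay wholly below WT in CPM for 15.7% of the genes tested in batch 2. By TPM the genotypes overlapped for Anxa4 there, at 42.1 and 53.7 TPM in PAD2KO and 42.2 to 57.4 TPM in WT. Anxa11 differed by -0.56 (SE 0.413) in batch 2, an error that reflects its 9 to 18 counts a library there.

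**Figure D3:**
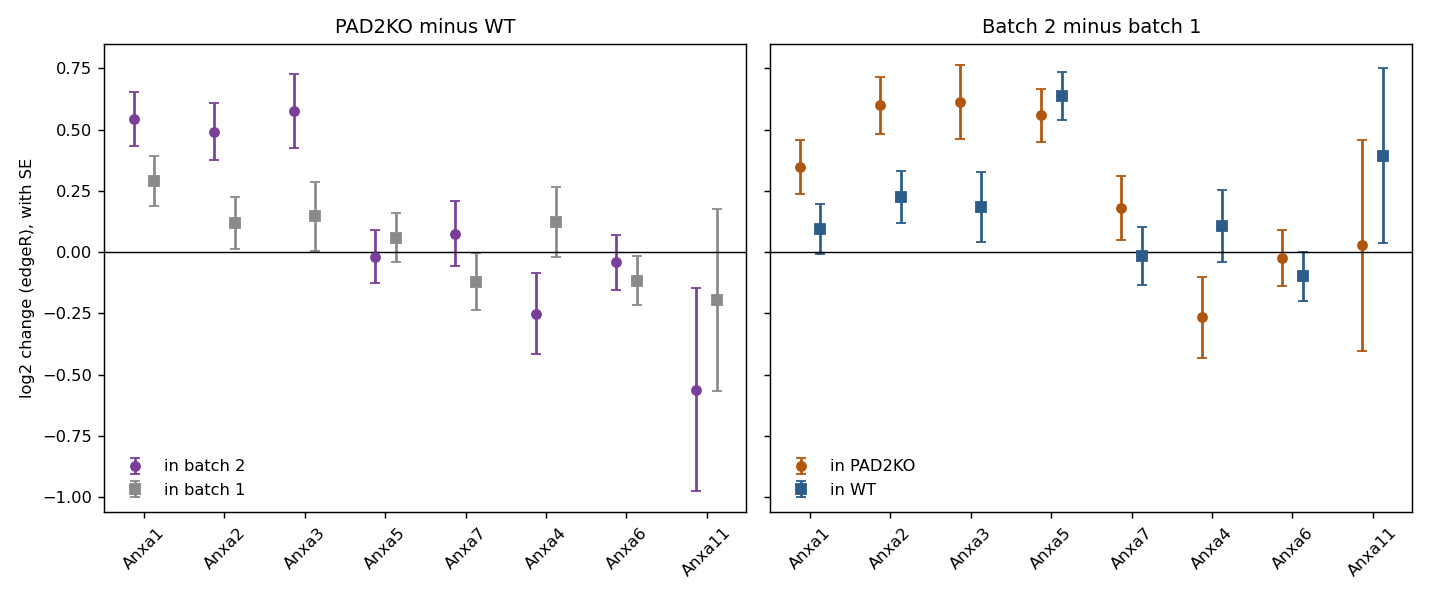
Fitted log2 change with its SE for the 8 tested annexins, PAD2KO minus WT in each batch (left) and batch 2 minus batch 1 in each genotype (right). Anxa1, Anxa2 and Anxa3 lie at 0.49 to 0.58 for the genotypes in batch 2, and Anxa5 changes by batch in both genotypes (0.56 in PAD2KO, 0.64 in WT).

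Between batches, Anxa5 was the annexin that rose in both genotypes. In PAD2KO it had 956 and 1066 CPM in batch 2, against 641, 706 and 712 CPM in batch 1. WT libraries had 977, 992 and 1106 CPM in batch 2, against 665, 675 and 636 CPM in batch 1. Batch 2 lay above batch 1 without overlap in each genotype, as for 22.4% of the genes tested in PAD2KO and 18.7% in WT. The log2 change of Anxa5 was 0.56 in PAD2KO (SE 0.108, adjusted p = 0.000404, edgeR) and 0.64 in WT (SE 0.0982, adjusted p = 1.33e-05, edgeR). The call was kept in all 11 fits that left out a library, in both genotypes.

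In PAD2KO fibroblasts 4 of the 8 tested annexins rose in batch 2 and 0 fell, beside 18.7% of all genes called in either direction, 9.52% higher and 9.13% lower. Anxa2 rose by 0.60 (SE 0.117, adjusted p = 0.000429, edgeR) and Anxa3 by 0.61 (SE 0.151, adjusted p = 0.00452, edgeR), each called in all 11 fits that left out a library. By CPM the PAD2KO libraries of batch 2 lay above those of batch 1 for Anxa1, as for 22.4% of the genes tested, but by TPM they overlapped. Anxa1 rose by 0.35 (SE 0.110, adjusted p = 0.0259, edgeR). That call was lost without PAD2KO 1 (adjusted p = 0.0579, edgeR), without PAD2KO 3 (adjusted p = 0.0757, edgeR) and without PAD2KO 7 (adjusted p = 0.25, edgeR), and with offsets from the deposited gene lengths (log2 change 0.28, adjusted p = 0.223, edgeR). Anxa4 changed by -0.27 (SE 0.165, adjusted p = 0.289, edgeR). The median of the 8 was 0.27, beside -0.0167 over all genes.

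In WT fibroblasts 1 of the 8 rose in batch 2, Anxa5, and 0 fell, beside 22.3% of all genes called in either direction, 11.7% higher and 10.6% lower. Anxa1 changed by 0.10 (SE 0.101, adjusted p = 0.564, edgeR) and Anxa3 by 0.18 (SE 0.143, adjusted p = 0.403, edgeR). Anxa2 was above its batch 1 range in all 3 WT libraries of batch 2, with a log2 change of 0.23 that did not pass (SE 0.106, adjusted p = 0.135, edgeR). Such a layout in CPM held for 18.7% of the genes tested. By TPM the batches overlapped for Anxa2 in WT, at 937 to 1194 TPM in batch 2 and 942 to 982 TPM in batch 1. The median of the 8 was 0.15, beside -0.0040 over all genes. The comparisons share libraries: PAD2KO 6 and PAD2KO 7 are the batch 2 side of the change between batches in PAD2KO and also the PAD2KO side of the genotype difference in batch 2.

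Whether the genotype difference itself changed between batches was tested by the interaction term. It called 0 of 8 annexins, beside 1.62% of all genes; 2 annexins had an unadjusted p under 0.05, and DESeq2 called 0. The difference, batch 2 minus batch 1, was 0.37 for Anxa2 (SE 0.158, adjusted p = 0.322, edgeR), 0.43 for Anxa3 (SE 0.208, adjusted p = 0.427, edgeR) and 0.25 for Anxa1 (SE 0.150, adjusted p = 0.542, edgeR). For Anxa5 it was -0.08 (SE 0.147, adjusted p = 0.895, edgeR). The wider genotype gap of Anxa1, Anxa2 and Anxa3 in batch 2 was thus not shown to differ from that in batch 1.

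Other cell markers moved alongside these values in batch 2. The summed CPM of 7 smooth muscle and pericyte markers was 1058 to 1277 in PAD2KO and 361 to 545 in WT libraries of batch 2, where batch 1 had 1358 to 2011 in PAD2KO and 1686 to 2029 in WT libraries. The list was mixed: in batch 2 Actg2, Cnn1, Des and Myh11 were higher in PAD2KO than in WT, and Cspg4 overlapped. Des was barely apart, at 162.9 and 180.6 CPM in PAD2KO against 66.6 to 162.4 CPM in WT. Rgs5 (1.59 and 1.64 against 7.15 to 12.9 CPM, 46 counts over all libraries) and Notch3 (4.11 and 6.36 against 8.12 to 16.1 CPM) were lower in PAD2KO. Of all genes tested, 15.5% lay wholly higher and 15.7% wholly lower in PAD2KO in batch 2. Of the 7 markers 5 were tested, and 2 were called higher there, beside 1.4% of all genes. Summed leukocyte markers (10 genes) were 66.7 to 123 CPM in PAD2KO and 181 to 301 CPM in WT libraries of batch 2, and 21.8 to 52.2 CPM in PAD2KO and 16.1 to 58.4 CPM in WT libraries of batch 1. Of these, S100a8 had 20.7 to 46.8 CPM in PAD2KO and 66.6 to 140 CPM in WT libraries of batch 2, Lyz2 had 164 CPM in WT 7, and S100a9 was at 0 counts in all libraries. Mesothelial markers (5 genes) summed to 79.5 to 125 CPM in PAD2KO and 59.1 to 125 CPM in WT libraries of batch 2, and to 161 to 414 CPM in PAD2KO and 296 to 489 CPM in WT libraries of batch 1. The 9 fibroblast markers summed to 5944 to 6590 CPM in PAD2KO and 6383 to 7173 CPM in WT libraries of batch 2, against 11640 to 13420 CPM in PAD2KO and 12280 to 16240 CPM in WT libraries of batch 1. Of these markers 8 were tested: between batches 2 rose and 5 fell in PAD2KO, and 0 rose and 4 fell in WT, beside 18.7% and 22.3% of all genes. Col3a1 averaged 1013 CPM in batch 2 and 5644 CPM in batch 1 in PAD2KO, and 1483 and 6742 CPM in WT. Vim went the other way, with means of 1951 and 1380 CPM in PAD2KO and 1667 and 1444 CPM in WT. Epithelial markers (8 genes) stayed at or under 47.6 CPM in sum, with Sftpc, Nkx2-1 and Scgb1a1 at 0, and the 7 endothelial markers at or under 22.6 CPM. The part of these cell markers in the annexin results was not tested.

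Anxa7, which binds the calcium sensor sorcin, differed between the scales. By counts the genotypes interleaved in batch 2, at 164 and 135 CPM in PAD2KO and 140, 140 and 147 CPM in WT libraries. By TPM the same libraries stood apart, at 99.3 and 99.3 TPM in PAD2KO, against 66.6, 65.1 and 64.9 TPM in WT. The effective lengths that the authors' software assigned to Anxa7 were 1901 and 1563 bases in PAD2KO and 2387, 2423 and 2597 bases in WT libraries of batch 2. In batch 1 they were 2170 to 2388 bases in PAD2KO and 2188 to 2417 bases in WT libraries, and Anxa7 had 67.1 to 75.4 TPM in PAD2KO and 75.6 to 78.3 TPM in WT. With these lengths as offsets, the log2 difference of PAD2KO against WT in batch 2 was 0.58 in place of 0.08, and the rise between batches in PAD2KO was 0.56 (adjusted p = 0.0161, edgeR) in place of 0.18 (adjusted p = 0.376, edgeR). Lengths apart between genotypes in batch 2 were not particular to Anxa7. They were wholly longer in PAD2KO for 2 annexins (Anxa5 and Anxa8) and wholly shorter for 2 (Anxa6 and Anxa7). The share of all genes apart by TPM or by length was not counted.

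**Figure D4:**
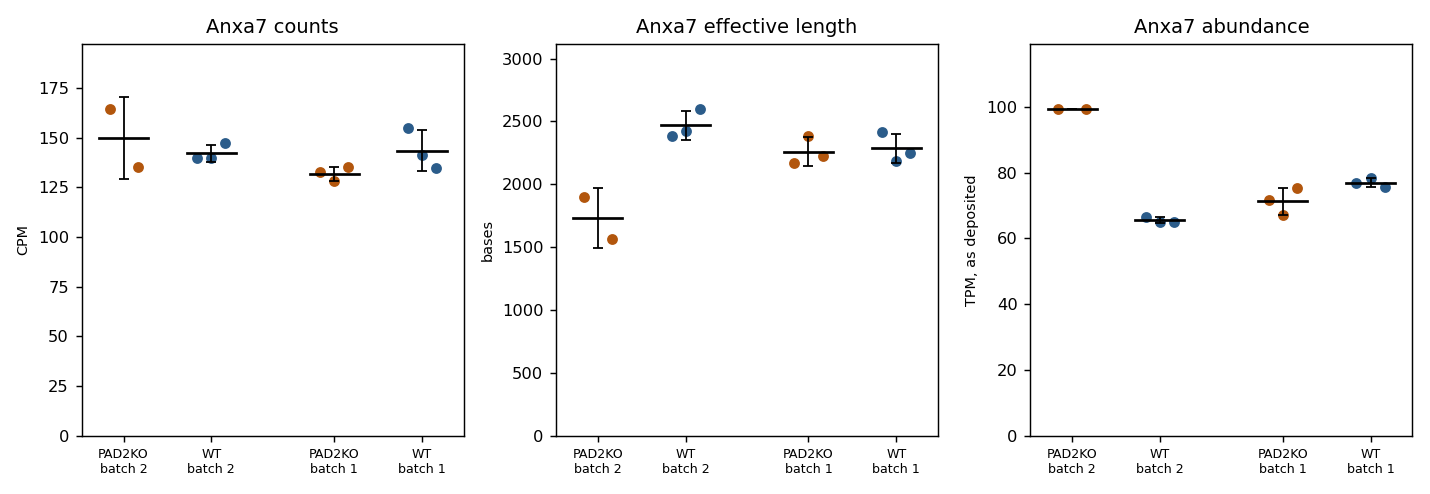
Anxa7 by library as CPM (left), effective length in bases (middle) and deposited TPM (right); lines are means and bars SD. The CPM of the genotypes interleave in batch 2, while the shorter lengths of PAD2KO (1563 and 1901 bases) go with higher TPM (99.3).

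Anxa1 differed between the scales too. Its effective length ranged from 1076 to 1383 bases, and PAD2KO 1 (1380 bases) had 360 TPM, inside the WT range of batch 1 (343 to 392 TPM), while PAD2KO 2 and PAD2KO 3 had 508 and 433 TPM. By TPM the batch 2 libraries remained apart, at 508 and 487 TPM in PAD2KO, against 312, 340 and 374 TPM in WT. The share of all genes with such a layout was counted by CPM only (15.5%).

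Among 9932 genes, those whose log2 CPM was most like that of Anxa1 over the 11 libraries, after centring each batch, were Pde12 (Pearson r = 0.977), Selenon (0.918), Bmp4 (0.918), Lepr (0.912), Chn1 (0.902) and Arl14ep (0.899). In that ranking Anxa2 was 25th (r = 0.860) and Anxa3 131st (r = 0.755), whereas Anxa5 stood at r = 0.224 and Anxa4, Anxa6, Anxa7 and Anxa11 between -0.427 and -0.0383. Without centring, the closest were Mob4 (0.886), Pde12 (0.880), Arl14ep (0.879), Rasgrp3 (0.876), Ndufaf4 (0.870) and Steap2 (0.862), with Anxa2 14th (0.838) and Anxa3 30th (0.788). The libraries share batches and genotypes, so these coefficients describe likeness of pattern only.

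Of 7 genes for S100 proteins that bind annexins, 3 rose and 1 fell between batches in PAD2KO, while 2 rose and 0 fell in WT. Over all genes, 18.7% were called between batches in PAD2KO (9.52% higher, 9.13% lower) and 22.3% in WT (11.7% higher, 10.6% lower). S100a10 had 187 and 219 CPM in PAD2KO libraries of batch 2, against 152, 146 and 123 CPM in those of batch 1; WT libraries had 165, 146 and 142 CPM in batch 2, against 135, 130 and 156 CPM in batch 1. It resembled Anxa2 in being highest in the PAD2KO libraries of batch 2. Its rise in PAD2KO was 0.53 (SE 0.135, adjusted p = 0.00536, edgeR), and was not called without PAD2KO 7 (log2 change 0.41, adjusted p = 0.137, edgeR); in WT it was 0.11 (SE 0.125, adjusted p = 0.577, edgeR). The interaction for S100a10 was 0.42 (SE 0.184, adjusted p = 0.346, edgeR).

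S100a6, whose product binds several annexins, had 1571 and 1802 CPM in PAD2KO libraries of batch 2, against 813 to 970 CPM in batch 1. WT libraries had 1168 to 1285 CPM in batch 2 and 719 to 927 CPM in batch 1. It rose by 0.90 in PAD2KO (SE 0.117, adjusted p = 2.13e-06, edgeR) and by 0.56 in WT (SE 0.107, adjusted p = 0.000206, edgeR). The batches did not overlap for S100a6, as for 22.4% of the genes tested in PAD2KO and 18.7% in WT in that direction. S100b rose by 2.46 in PAD2KO (adjusted p = 2.1e-08, edgeR) and by 2.60 in WT (adjusted p = 1.37e-09, edgeR). The median over the 7 genes was 0.34 in PAD2KO and 0.41 in WT, beside -0.0167 and -0.0040 over all genes. S100a11, the partner of annexin A1, changed by -0.02 in PAD2KO (SE 0.134, adjusted p = 0.954, edgeR) and -0.22 in WT (SE 0.120, adjusted p = 0.211, edgeR).

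On the receptor side, 0 of 7 formyl peptide receptor genes passed the filter: Fpr1 held 5 counts and Fpr2 1 count over the 11 libraries. Of 7 calcium-dependent phospholipase A2 genes, 1 passed, Pla2g4a, the cytosolic enzyme that annexin A1 restrains. It had 310 and 234 CPM in PAD2KO and 415, 470 and 429 CPM in WT libraries of batch 2. Pla2g4a thus had the opposite layout to Anxa1, seen for 15.7% of the genes tested, with a log2 difference of -0.69 (SE 0.134). In batch 1 it had 115 to 140 CPM in PAD2KO and 127 to 162 CPM in WT libraries, which overlapped. Between batches it rose by 1.08 in PAD2KO (SE 0.138, adjusted p = 1.58e-06, edgeR) and by 1.62 in WT (SE 0.124, adjusted p = 5.63e-11, edgeR). The interaction was -0.54 (SE 0.187, adjusted p = 0.182, edgeR).

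Of 17 membrane repair and caveolae genes, 13 were tested. Between batches 2 rose and 3 fell in PAD2KO, and 1 rose and 7 fell in WT. The share of all genes called was 18.7% in PAD2KO (9.13% lower) and 22.3% in WT (10.6% lower). Cavin3, a caveolar coat gene, fell by 1.15 in PAD2KO (adjusted p = 1.95e-05, edgeR) and by 1.44 in WT (adjusted p = 5.39e-08, edgeR). Cav1, which encodes the main caveolar coat-forming membrane protein, fell by 0.62 in PAD2KO (adjusted p = 0.00338, edgeR) and by 1.18 in WT (adjusted p = 2.04e-07, edgeR). The call in PAD2KO was lost without PAD2KO 6 (adjusted p = 0.146, edgeR) and with length offsets (adjusted p = 0.168, edgeR), a setting that left 1 rise and 1 fall in PAD2KO over the list.

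**Figure D5:**
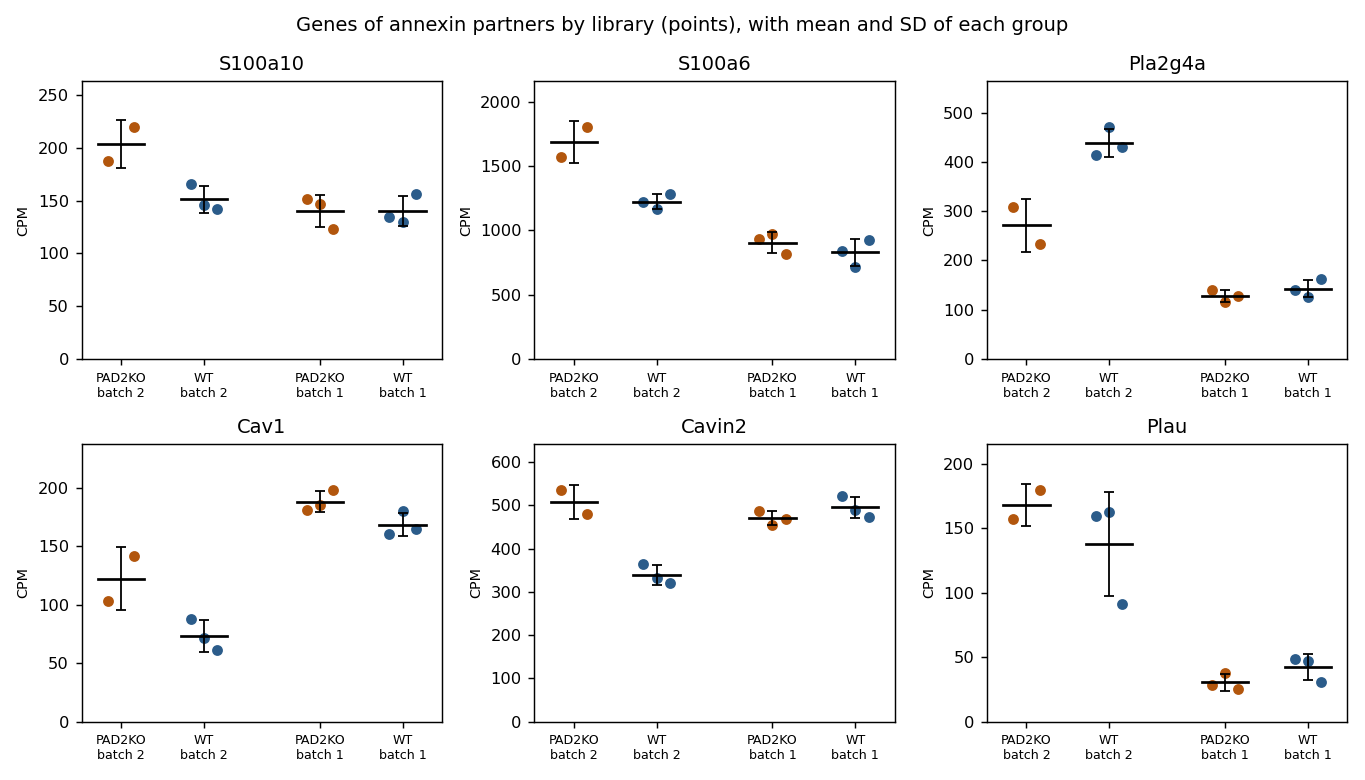
CPM of 6 genes around the annexins by genotype and batch; points are libraries, lines the mean and bars the SD. S100a10 and S100a6 are highest in PAD2KO libraries of batch 2 (187 and 219 CPM for S100a10), Pla2g4a in WT libraries of batch 2, and Cavin2 falls between batches in WT.

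Cavin2, another caveolar coat gene, was the list's call for the interaction, which called 1.62% of all genes. It had 535 and 481 CPM in PAD2KO and 365, 332 and 321 CPM in WT libraries of batch 2, and 486, 455 and 468 CPM in PAD2KO and 522, 490 and 474 CPM in WT libraries of batch 1. The genotype difference in batch 2 exceeded that in batch 1 by 0.66 (SE 0.150, adjusted p = 0.0181, edgeR). Its call was lost without PAD2KO 6 (adjusted p = 0.0767, edgeR), PAD2KO 7 (0.0583), WT 3 (0.0505) or WT 6 (0.0511), and with length offsets (0.0915). Its log2 value stayed between 0.58 and 0.73 on leaving out a library and was 0.66 with length offsets.

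Genes for making plasmin at the cell surface, the reaction that annexin A2 and S100a10 assist, rose between batches in both genotypes. Of 8 genes 7 were tested (Plg, for plasminogen itself, was at 0 counts): 6 rose and 1 fell in PAD2KO, and 5 rose and 0 fell in WT, with medians of 0.76 and 0.89. Beside these counts, 18.7% of all genes were called between batches in PAD2KO (9.52% higher) and 22.3% in WT (11.7% higher). Plau, the urokinase activator, had 157 and 180 CPM in PAD2KO libraries of batch 2, against 25.2 to 38.0 CPM in batch 1. WT libraries had 159, 163 and 91.3 CPM in batch 2, against 30.6 to 48.9 CPM in batch 1. Its rise was 2.46 in PAD2KO (adjusted p = 1.51e-06, edgeR) and 1.73 in WT (adjusted p = 1.26e-05, edgeR). Plaur, its receptor, rose by 1.20 in PAD2KO (adjusted p = 0.000121, edgeR) and by 1.01 in WT (adjusted p = 0.000315, edgeR). Of 11 genes for ALG-2, sorcin and ESCRT proteins that work with annexins A7 and A11, 10 were tested. Between batches 1 rose (Tsg101) and 0 fell in PAD2KO, and 0 rose and 1 fell (Vps4a) in WT, beside the same 18.7% and 22.3% of all genes.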

How the data were processed

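Bulk RNA-seq of sorted mouse neonatal lung fibroblasts was analysed from a single table. The authors deposited estimated counts, TPM and effective gene lengths per library; the tools named in the submitters' processing notes are Salmon 1.3.2, fastp and DESeq2 1.46.0, the build is GRCm39, and the annotation and use of strand are not given in the sources used here. Per the labels' protocols, the SMARTer mRNA kit and SmartSeq2 chemistry were used, without molecular identifiers, so copies of a molecule count separately. The deposited estimated counts split reads between similar genes by a model. Of 56065 entries, 23133 without a symbol (3.80% to 6.40% of counts) were left out of totals and tests; the rest were summed to 32868 symbols and rounded. Rn18s took 8.52% to 12.1% of counts.

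Differences were tested in R 4.3.3 with edgeR 4.0.16 (TMM, filterByExpr on genotype, robust quasi-likelihood, Benjamini-Hochberg at 0.05 over 9932 genes). The fit of both batches had terms for batch and genotype; all other comparisons came from a model of the 4 genotype and batch groups over all 11 libraries. The common biological coefficient of variation was 0.129 and 0.115. CPM are scaled by TMM; likeness used log2 CPM with a prior count of 2. The scripts were tested on simulated data. Alternatives were DESeq2 1.42.0 size factors and test, no filter, length offsets, no batch term, only the libraries compared, a replicate block and each library left out. WT 5 and WT 6 were the most alike pair (chi-square per degree of freedom 1.51, other pairs 2.10 to 3.18) and were kept as 2. Promoters came from RefSeq on GRCm38.p6.

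Members and gene lists were chosen with earlier results of these data known. Named genes were all annexins, up to 4 tested members of each list by p, and the 6 genes most like Anxa1; S100a11, S100a9, Fpr1, Fpr2, Pdgfra, Epcam, Cdh5, Ptprc, Sftpc, Nkx2-1, Scgb1a1, Tsc22d3, Padi2 and Plg were named beside that rule. Single members of the marker lists were also named, whatever their p. Python 3.11.15 was used for tables and figures.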

Additional observations from a re-analysis of the deposited data

Results flagged for a closer look

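Of 54 groups of annexin values (9 genes, 3 quantities and 2 genotypes), 6 held a library whose gap to its neighbour was large for the range of its group. In a single uniform group chance gives about 1 in 20. That rate cannot be set against the 6, because each group pooled both batches and the quantities of a gene are related. Anxa2 was at 1285 CPM in WT 7, where the other 5 WT libraries had 932 to 1062 CPM, and at 1194 TPM there, against 937 to 1027 TPM. Anxa11 was at 13.5 TPM in WT 7, against 4.99 to 6.70 TPM in the other WT libraries. Anxa7 was at 164.2 CPM in PAD2KO 6, against 128 to 135 CPM in the other PAD2KO libraries. The effective length of Anxa1 was 1383 bases in WT 5, against 1120 to 1184 bases in the other WT libraries. For Anxa8 it was 974.8 bases in PAD2KO 1, against 1635 to 1653 bases, on 1 count.

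The genotype difference (PAD2KO minus WT) differed between batch 2 and batch 1, by edgeR's interaction term, for 4 of the genes named around the annexins. That term called 1.62% of all genes. The difference of the log2 changes was 0.66 for Cavin2. For the smooth muscle genes Cnn1 and Myh11 it was 1.53 and 2.23, and for the mesothelial marker Msln, which held 82 counts in all and stood at 0 to 0.794 CPM in WT libraries of batch 2, it was 3.82, a fitted value that depends on the prior count.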

How the results depend on the processing

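Over 99 alternative counts of called annexins, 84 stayed within 1.5 times the main count. For both batches together, the main count of 1 became 2 with no filter on low counts (Anxa2 was added) and 0 with length offsets, with no batch term and with the replicate block; leaving out a library gave 0 to 1. For batch 2 alone, the main count of 3 became 0 with length offsets, 2 with DESeq2's test and 0 to 3 on leaving out a library. In PAD2KO between batches, 4 were called in each setting run other than leaving out a library, which gave 3 to 4; with length offsets the 4 held Anxa7 in place of Anxa1. The counts of 1 in WT between batches, and of 0 in batch 1 and for the interaction, did not change in any alternative run. The cause of these shifts was not tested.

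Of 792 single annexin values, 21 changed sign, none of them called under either setting; 12 were differences between genotypes, of Anxa4, Anxa5, Anxa6 or Anxa7, and 9 were between batches or for the interaction. The 9 were, with length offsets Anxa1 (-0.0026) and Anxa4 (-0.0442) between batches in WT, and on leaving out a library Anxa7 in WT (-0.0596 to 0.0372), Anxa11 (-0.2431 to 0.247) and Anxa6 (-0.1297 to 0.07) in PAD2KO, and Anxa6 for the interaction (-0.0262 to 0.1718). Of 728 values of called partner genes, 638 were called again and 90 were not, with the same sign.

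Counts over all genes, in the order both batches, batch 1, batch 2, PAD2KO between batches, WT between batches and interaction, were 19, 13, 309, 1853, 2212 and 161. They were 142, 58, 529, 1926, 2385 and 323 with no filter, 2, 2, 89, 864, 1356 and 26 with length offsets and 30, 10, 247, 1219, 1659 and 142 with DESeq2's test; with no batch term the first was 4, and fitting only the libraries compared gave 22 for batch 1. Leaving out a library gave 8 to 26, 5 to 20, 65 to 371, 1079 to 1947, 1708 to 2303 and 33 to 233.

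PAD2KO and WT share the replicate numbers 1, 3, 6 and 7, but same-numbered libraries did not deviate together (r = 0.0487, 0.0104, 0.0297 and 0.00152), and 2 of 4 were most like their own number. With the numbers as a replicate block, annexins called were 0 for both batches, 0 for batch 1, 3 for batch 2 and 0 for the interaction, and all genes called were 1, 6, 246 and 116. No paired analysis was possible between batches because they share no numbers. At 8 to 18 counts a library for Anxa11 and 0 to 5 for Anxa8, depth limits what can be said of either.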

Other observations

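Of 12 glucocorticoid response genes, a list that surrounds Anxa1 since glucocorticoids are known to induce it, 9 were tested. Between batches 3 rose and 1 fell in PAD2KO, and 3 rose and 0 fell in WT, with medians of -0.01 in each, beside 18.7% of all genes called in PAD2KO and 22.3% in WT. The gene that fell was Nr3c1, which encodes the glucocorticoid receptor, with 31.2 and 18.3 CPM in PAD2KO libraries of batch 2, against 38.0 to 65.0 CPM in batch 1. Its log2 change was -1.03 in PAD2KO (adjusted p = 0.0119, edgeR), a call lost without PAD2KO 1 (adjusted p = 0.0585, edgeR), without PAD2KO 7 (adjusted p = 0.209, edgeR) and with length offsets (adjusted p = 0.0743, edgeR), and -0.44 in WT (adjusted p = 0.217, edgeR). Errfi1, a feedback inhibitor of the EGF receptor, rose by 1.61 in PAD2KO (adjusted p = 1.97e-10, edgeR) and by 1.37 in WT (adjusted p = 4.24e-10, edgeR). Angptl4, a lipoprotein lipase inhibitor, rose by 1.80 in PAD2KO (adjusted p = 1.58e-06, edgeR) and by 2.18 in WT (adjusted p = 1.44e-08, edgeR). The kinase gene Sgk1 had 401 and 462 CPM in PAD2KO libraries of batch 2, against 252 to 266 CPM in batch 1, and 430 to 489 CPM in WT libraries of batch 2, against 188 to 230 CPM in batch 1. Tsc22d3, which encodes the glucocorticoid-induced leucine zipper, changed by -0.52 in PAD2KO (adjusted p = 0.259, edgeR) and -0.13 in WT (adjusted p = 0.79, edgeR).

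Of 12 genes for exposing or clearing phosphatidylserine, the lipid that annexin A5 binds, 9 were tested. Among all genes, 18.7% were called between batches in PAD2KO and 22.3% in WT. Between batches 3 rose and 1 fell in PAD2KO, and 0 rose and 1 fell in WT; without PAD2KO 7 the count in PAD2KO was 1 and 0. Axl, a receptor tyrosine kinase bridged to phosphatidylserine by Gas6, had 1268 and 1495 CPM in PAD2KO libraries of batch 2, against 885 to 1023 CPM in batch 1. WT libraries had 1082 to 1116 CPM in batch 2 and 909 to 939 CPM in batch 1. Its rise was 0.56 in PAD2KO (adjusted p = 0.000367, edgeR), and the value in WT was 0.24 (adjusted p = 0.0814, edgeR). The interaction for Axl was 0.32 (adjusted p = 0.38, edgeR), so the genotypes were not shown to differ. Gas6 itself was lower in batch 2 in both genotypes, with a log2 change of -1.66 in PAD2KO (-2.12 to -1.26 on leaving out a library). It had 94.4 and 54.0 CPM in PAD2KO libraries of batch 2, against 352, 163 and 192 CPM in batch 1. Its WT libraries had 105 to 117 CPM in batch 2 and 184 to 228 CPM in batch 1. Batch 2 lay wholly below batch 1 for 23.7% of the genes tested in PAD2KO and 17.8% in WT.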
